A study of Mus musculus with 12 samples.

Results

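The 10 genes described here are markers of regulatory T cells (Treg cells), measured in mouse Th17 cells. They were chosen by name and looked up by Ensembl identifier, and all 10 were found among the 35275 genes of the count table. They are 3 transcription factors (Foxp3, Ikzf2 and Ikzf4), 3 receptors of the costimulation system (Ctla4, Tnfrsf18 and Tnfrsf4) and 4 other proteins (Lrrc32, Gpr83, Izumo1r and Capg). Poly-A RNA was sequenced from wild-type CD4+ T cells that had been naive at the start and were turned into Th17 cells in vitro over 72 h. All 4 groups were stimulated through plate-bound anti-CD3 and anti-CD28 in the presence of IL-6 and TGF-B, with IFN-g and IL-4 neutralised by antibody. The groups then differed in what the cells received for the 4 h before harvest: nothing (untreated), the glucocorticoid drug dexamethasone (Dex), the inflammatory cytokine interleukin-1 beta (IL-1B), or the pair of them (Dex+IL-1B). Each group had 3 libraries, 12 in all, and the dose of either agent is not given in the sources used here. The cells were a bulk culture, so fewer cells of a type and less RNA per cell cannot be told apart.

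Treg cells and Th17 cells arise from the same naive CD4+ precursors, and TGF-B is needed for both. The forkhead factor Foxp3 defines the Treg lineage, while IL-6 turns TGF-B-exposed cells away from Foxp3 and towards the Th17 fate. Most of the other 9 genes are Treg markers by degree: CTLA-4, GITR, OX40 and others also appear on conventional T cells once they are activated.

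Promoter windows of RefSeq genes on build GRCm38.p6 were found for 7 of the 10 genes, in 8 windows of 300 bases (250 before to 50 after a transcription start). Of the windows, 3 are printed, each on its own strand: Tnfrsf4 as the promoter of a gene that changed in these data, and Foxp3 and Tnfrsf18 because they held a STAT-type match, shown in capitals. STAT5 is the factor through which IL-2 acts on Foxp3, and Tnfrsf4 and Tnfrsf18 are close neighbours on chromosome 4, with 9551 bases between them. The windows lie at chrX:7580233-7580532 (Foxp3, plus strand), chr4:156026072-156026371 (Tnfrsf18, plus strand) and chr4:156013445-156013744 (Tnfrsf4, plus strand). The Foxp3 window printed is that of the more downstream start, and the upstream Foxp3 window (chrX:7579426-7579725) held no match.
Foxp3: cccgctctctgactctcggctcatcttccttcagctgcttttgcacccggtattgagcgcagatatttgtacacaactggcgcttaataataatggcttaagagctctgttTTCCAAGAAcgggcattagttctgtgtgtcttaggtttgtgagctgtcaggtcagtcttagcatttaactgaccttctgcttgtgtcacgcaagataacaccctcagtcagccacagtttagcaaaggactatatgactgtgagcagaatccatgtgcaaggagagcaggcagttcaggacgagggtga
Tnfrsf18: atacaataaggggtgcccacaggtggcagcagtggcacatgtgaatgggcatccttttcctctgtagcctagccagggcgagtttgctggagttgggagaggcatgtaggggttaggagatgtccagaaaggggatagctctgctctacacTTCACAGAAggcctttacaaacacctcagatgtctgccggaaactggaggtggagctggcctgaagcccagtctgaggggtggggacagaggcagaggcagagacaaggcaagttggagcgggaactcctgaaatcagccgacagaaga
Tnfrsf4: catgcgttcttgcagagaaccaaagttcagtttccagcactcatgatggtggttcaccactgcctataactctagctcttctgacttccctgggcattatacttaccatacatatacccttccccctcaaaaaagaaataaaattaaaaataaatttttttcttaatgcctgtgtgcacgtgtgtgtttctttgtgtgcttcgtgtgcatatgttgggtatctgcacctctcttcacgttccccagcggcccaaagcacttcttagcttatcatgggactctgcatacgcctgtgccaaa

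The motifs searched, on both strands, were a full glucocorticoid receptor site (AGAACA, then 3 bases of any kind, then TGTTCT), its single arm (AGAACA, contained in the full site), an NF-kB site (GGG, then 2 bases of any kind, then TTTCC), an AP-1 site (TGANTCA), a STAT site (TTCNNNGAA) and a forkhead site (TGTTTAC). Among 32851 windows of the same length, 0.00913%, 19%, 1.63%, 7.81%, 8.3% and 3.65% held them in that order. In the 8 windows, 1 STAT site lay 139 bases before the downstream Foxp3 start and 1 STAT site 99 bases before the Tnfrsf18 start. The only other match was 1 single glucocorticoid receptor arm 30 bases after the Capg start. The Tnfrsf4 window held none of these motifs, nor did those of Ctla4, Gpr83, Izumo1r and the upstream Foxp3 start. A match is a run of letters and not a measured binding site, and windows this short leave out distal enhancers.

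Total counts ran from 16904106 to 30445734 per library. A pair of libraries, IL-1B 2 and Dex+IL-1B 1, stood apart from the others. Gm42418, Gm26917 and Lars2, whose annotation overlaps rRNA repeats, summed there to 14036 and 18550 CPM (counts scaled to a common library size), against 2328 to 5644 in the other 10. Values without this pair of rRNA-rich libraries are given for some results, not for every one that differed. A gene without such a value is not thereby unchanged. The treatments left their known marks. Fkbp5, a glucocorticoid target, rose by 1.12 ± 0.10 on the log2 scale with Dex (adjusted p = 4.83e-05), and Klf9 rose by 1.40 ± 0.10 (adjusted p = 1e-05). With IL-1B, the NF-kB target Nfkbia rose by 1.17 ± 0.12 (adjusted p = 5.24e-05) and Il17a by 2.50 ± 0.31 (adjusted p = 0.000562). The Th17 label was matched by Il17a, at a median of 46.6 CPM per kb of exon over the 12 libraries, and the T cell label by Cd4 at 129. Summed markers of other cells were low: 16.4 to 20.8 CPM for 8 CD8 T and NK cell markers and 2.52 to 5.98 for 10 myeloid markers, with Clec9a at 0 in all libraries. Of 7 listed gamma-delta and innate lymphoid markers 5 were found, and these summed to 6.39 to 16.8 CPM, with Klrg1 at 0 in all. Trdc and Trgc1 were not found, so gamma-delta T cells were only partly covered. In untreated 1, Gata3 gave 12.7 of the 16.8 CPM and Blk, also listed for B cells, 3.80. The 9 B cell markers summed to 102 to 202 CPM. Each of these 4 sums was highest in untreated 1.

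The 10 genes fell into 2 very different ranges of abundance. Scaled for exon length, Tnfrsf4 had a mean of 243.6 CPM per kb over the 12 libraries and Ctla4 235.9, which placed both within the top 2 percent of the 13821 genes tested (98.9 and 98.85 percentile). Their order varied by group: Ctla4 had the higher mean untreated (188 against 168) and with Dex (311 against 233), and Tnfrsf4 in the IL-1B groups (285 against 163, and 289 against 282 with Dex added). Over the 12 libraries Capg followed at 131.4, then Izumo1r at 65.9, Tnfrsf18 at 41.8, Lrrc32 at 19.6, Ikzf4 at 12.6 and Gpr83 at 10.9. Foxp3 and Ikzf2 came last, at 0.315 and 0.164, the 10.01 and 5.046 percentile. In this order 2 steps were clear of the spread between libraries. The lowest Capg library (114) lay above the highest of Izumo1r (80.9), and the lowest Gpr83 library (5.18) lay above the highest of Foxp3 (0.397). All other neighbours in the order overlapped in range. Thus the cultures held abundant RNA for the activation-linked Treg receptors and very little for Foxp3 itself.

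**Figure D1:**
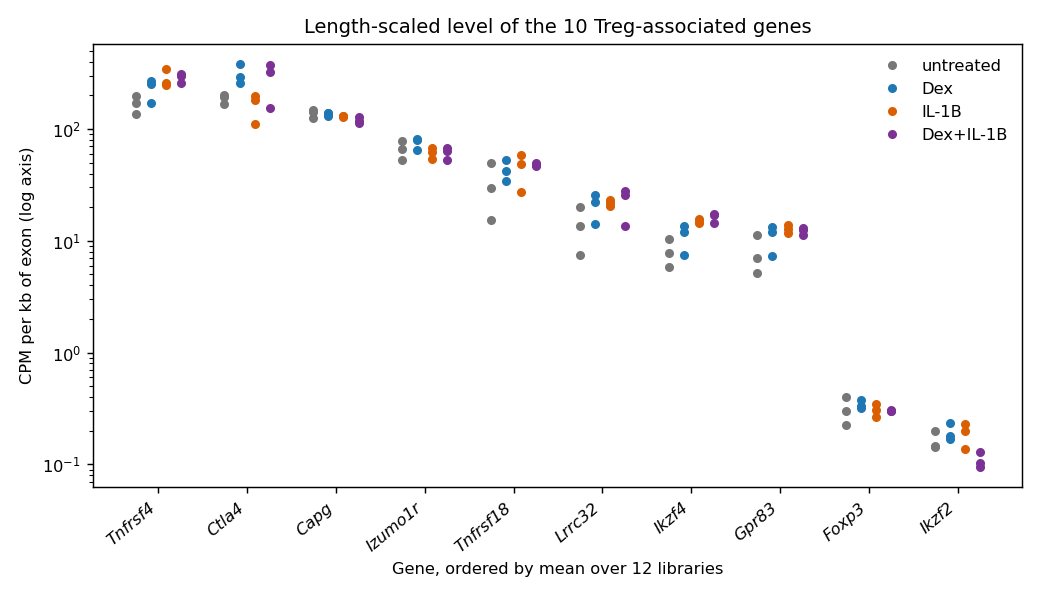
CPM per kb of exon (log axis) for each of the 10 genes, ordered by the mean over 12 libraries, with 1 point per library coloured by group. The upper 8 genes lie between 5.18 and 381 CPM per kb, and Foxp3 and Ikzf2 lie apart from them between 0.0943 and 0.397.

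Of the transcription factors, Foxp3 (chrX:7573644-7595245 on GRCm38, as are all gene positions here) had only 22 to 43 reads in each library. Its level was 1.03, 1.37 and 1.82 CPM in the untreated libraries, 1.54, 1.74 and 1.45 with Dex, 1.41, 1.22 and 1.58 with IL-1B, and 1.39, 1.36 and 1.39 with the combination. The groups overlapped throughout, apart from Dex and Dex+IL-1B, and the whole span of the 12 libraries was that of the untreated group. The log2 change was 0.17 ± 0.28 with Dex (95% interval -0.42 to 0.76, adjusted p = 0.916). For IL-1B it was 0.00 ± 0.28 (-0.59 to 0.59, adjusted p = 0.999), and for the combination -0.02 ± 0.28 (-0.62 to 0.58, adjusted p = 0.973). Foxp3 also shares exon bases with other genes, 853 of its 4577 with Flicr on its own strand and 590 with Ccdc22 on the other, and the counting rule for such reads is not given in the sources used here.

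Ikzf2 (Helios, an Ikaros-family zinc finger factor that stabilises Treg cells; chr1:69531214-69687245) was rarer still for its length, with 19 to 64 reads in a library. Its levels were 1.66, 1.69 and 2.30 CPM untreated, 2.73, 1.96 and 2.10 with Dex, and 2.67, 2.32 and 1.58 with IL-1B. Cells given both agents had 1.20, 1.49 and 1.10. The 3 libraries that had both agents were thus the lowest 3 of the 12. Their difference did not pass the test in any comparison: -0.57 ± 0.29 against untreated (adjusted p = 0.193), -0.79 ± 0.29 against IL-1B (adjusted p = 0.614) and -0.84 ± 0.29 against Dex (adjusted p = 0.0695). The interaction, which asks whether the effect of both differed from the sum of the single effects, was -1.06 ± 0.40 (adjusted p = 0.989).

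Ikzf4 (Eos, an Ikaros-family partner of Foxp3 in gene repression in mouse Treg cells; chr10:128630843-128645991) rose with IL-1B. Its untreated levels were 34.7, 46.8 and 61.7 CPM, against 85.9, 87.8 and 94.6 with IL-1B and 86.7, 103 and 104 under both agents. Every library that had IL-1B lay above every library that did not, since the Dex libraries were at 72.4, 44.5 and 81.6. The group means were 47.7 ± 13.5 CPM (SD, n = 3) untreated, 66.2 ± 19.3 with Dex, 89.5 ± 4.56 with IL-1B and 98.0 ± 9.84 with both. On the log2 scale the rise was 0.91 ± 0.22 with IL-1B (1.88-fold, adjusted p = 0.0113) and 1.04 ± 0.22 with both (2.06-fold, adjusted p = 0.00644). The rise with IL-1B missed the threshold without untreated 2 (adjusted p = 0.0516), without the rRNA-rich pair (0.0628) and with no filter on low counts (0.0618), over a range of 0.000331 to 0.0628. The rise with both passed in all 18 alternative settings. With Dex alone the value was 0.47 ± 0.22 (adjusted p = 0.502).

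None of the 3 other Ikaros-family genes tested (Ikzf1, Ikzf3 and Ikzf5) was called with IL-1B, where 21.4% of all genes were. A list of 3 is too short to be read against that share. Of the 3, 2 had an unadjusted p under 0.05: Ikzf3 at -0.73 ± 0.26 (adjusted p = 0.0691) and Ikzf5 at 0.30 ± 0.12 (adjusted p = 0.102). DESeq2 called 1 of the 3 lower, as did edgeR when untreated 3 or Dex 2 was omitted, and omitting IL-1B 3 gave 1 called higher.

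**Figure D2:**
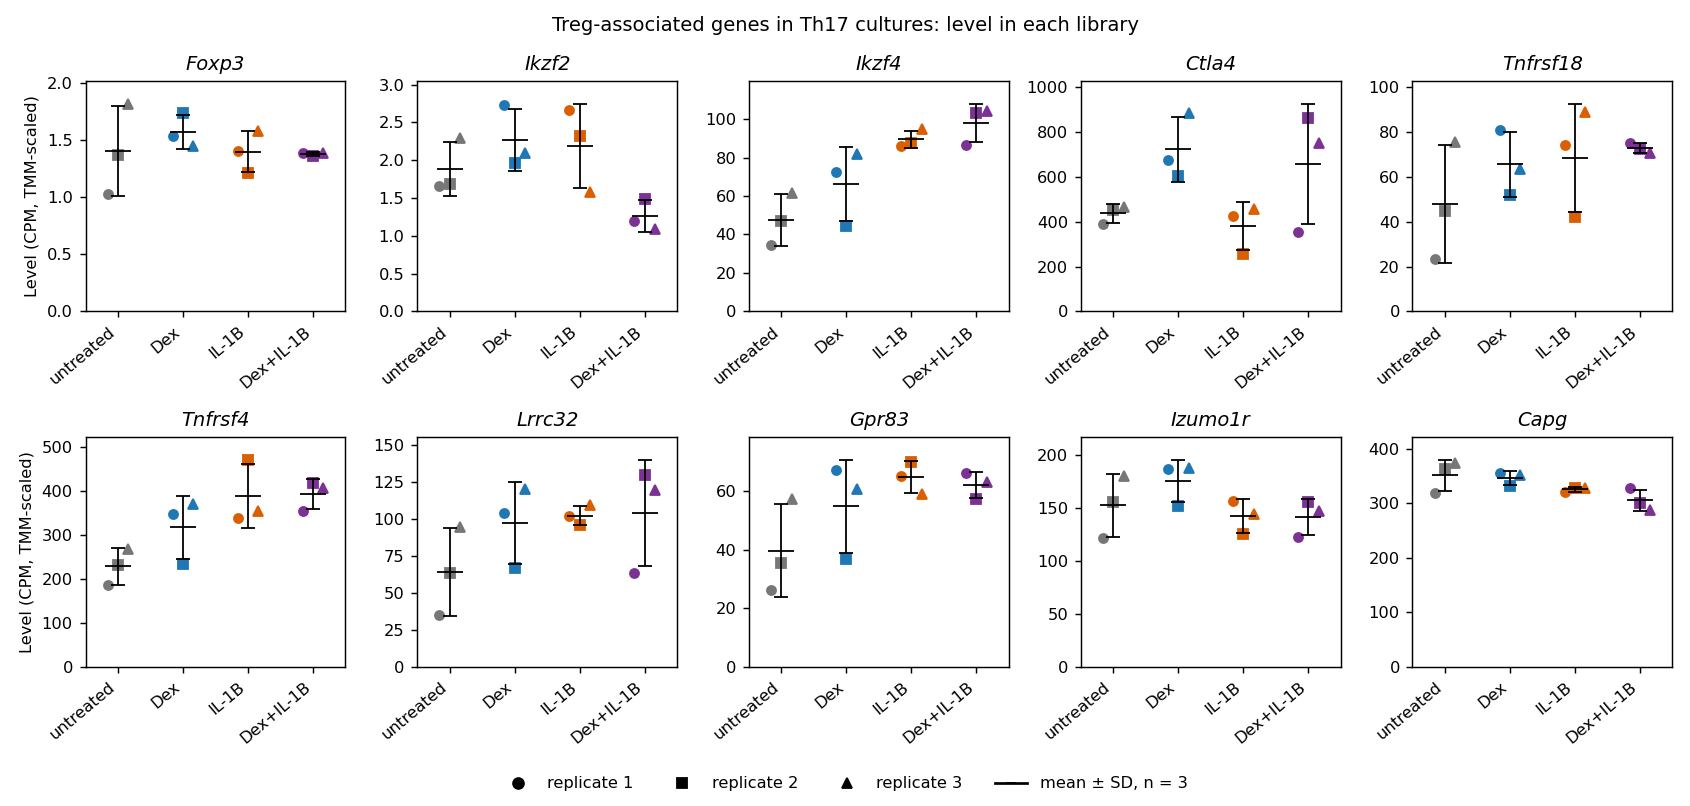
Level of each gene in CPM (TMM-scaled, linear axis from 0) in every library, with the symbol giving the replicate number and bars the mean ± SD of 3 libraries. Ikzf4 and Tnfrsf4 rise in the IL-1B and Dex+IL-1B groups, Ctla4 is split in Dex+IL-1B between 356 and 866 CPM, and Foxp3 stays between 1.03 and 1.82 CPM.

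Among the receptors, Tnfrsf4 (OX40, a TNF-receptor family costimulator carried by Treg cells and by activated T cells; chr4:156013843-156016612) was the second gene to rise with IL-1B. It was at 186, 233 and 268 CPM untreated, at 339, 472 and 355 with IL-1B, and at 356, 420 and 408 with both. The lowest library with IL-1B lay above the highest untreated one. The Dex libraries, at 348, 235 and 370, reached into both ranges. The log2 rise was 0.77 ± 0.18 with IL-1B (1.70-fold, adjusted p = 0.00992) and 0.79 ± 0.18 with both (1.72-fold, adjusted p = 0.0096), and the value with Dex was 0.47 ± 0.18 (adjusted p = 0.375). The rise with IL-1B alone missed the threshold without the rRNA-rich pair (adjusted p = 0.0671, range over the alternatives 0.000441 to 0.0671).

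Tnfrsf18 (GITR, chr4:156026164-156028895) takes its full name, glucocorticoid-induced TNF receptor, from its induction by dexamethasone in T cells, and is abundant on Treg cells. Here it was at 23.2, 44.9 and 75.8 CPM untreated, 81.1, 52.1 and 63.7 with Dex, 74.5, 42.0 and 89.0 with IL-1B, and 75.1, 72.3 and 70.8 with the combination. The untreated libraries alone spanned most of the range, with a coefficient of variation of 55.1%, against 3.01% for the libraries that had both agents. The value with Dex was 0.46 ± 0.37 (95% interval -0.36 to 1.28, adjusted p = 0.779), with IL-1B 0.52 ± 0.37 (adjusted p = 0.358) and with both 0.60 ± 0.37 (adjusted p = 0.301). Each value leaned on single libraries. The Dex value was 0.12 without untreated 1, 0.93 without untreated 3 and 0.27 without Dex 1, and the IL-1B value was 0.18 without untreated 1, 1.00 without untreated 3, 0.78 without IL-1B 2 and 0.27 without IL-1B 3. Without untreated 3 the value for both became 1.09 and was called (adjusted p = 0.0482). Tnfrsf18 shares 414 of its 1524 exon bases with Gm16008, an antisense gene.

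Ctla4 (chr1:60887000-60915832) encodes the inhibitory receptor that competes with CD28 for CD80 and CD86 and is required for Treg function. It was the member that stood highest with Dex, at 678, 606 and 887 CPM against 391, 455 and 466 untreated. No Dex library overlapped an untreated one. In IL-1B the levels were 424, 258 and 457 CPM, and with both agents 356, 866 and 753. The lowest libraries of these groups were IL-1B 2 and Dex+IL-1B 1, the rRNA-rich pair. The log2 value with Dex was 0.73 ± 0.30 (1.66-fold, adjusted p = 0.439), which did not pass over all genes tested. Taken as the mean Dex effect with and without IL-1B it was 0.76 ± 0.21 (adjusted p = 0.125). The mean effect was called without Dex+IL-1B 1 (0.91, adjusted p = 0.00932), without the rRNA-rich pair (0.80, adjusted p = 0.00368) and in DESeq2 (adjusted p = 0.0302), in a range of 0.00368 to 0.367 over the alternatives. Without that pair, Ctla4 was also called with Dex alone (0.73, adjusted p = 0.0324) and with both (0.90, adjusted p = 0.00292, from 0.59 ± 0.30 and 0.195 with all libraries). Neither library of the pair is in the Dex or the untreated group, and the value with Dex alone stayed at 0.73. The pair enters that comparison only through the filter, scaling and spread that all libraries of the fit share. The share of all genes called without the pair is not given here. With IL-1B alone the value was -0.20 ± 0.30 (adjusted p = 0.668).

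The other 4 genes encode 3 surface proteins and 1 cytoskeletal protein. Lrrc32 (GARP, which holds latent TGF-B at the surface of Treg cells; chr7:98489283-98502181) was at 35.2, 63.2 and 94.4 CPM untreated, 104, 66.5 and 120 with Dex, 102, 95.9 and 109 with IL-1B, and 63.1, 130 and 120 with the combination. All IL-1B libraries lay above all untreated ones, but the untreated spread was wide, and the values of 0.60 ± 0.35 with Dex (adjusted p = 0.658), 0.67 ± 0.35 with IL-1B (adjusted p = 0.203) and 0.70 ± 0.35 with both (adjusted p = 0.198) did not pass. The same held for Gpr83, a G protein-coupled receptor gene enriched in Treg cells (chr9:14860210-14870789), at 26.4, 35.6 and 57.3 CPM untreated and 65.4, 70.0 and 59.3 with IL-1B. Its libraries were at 67.2, 37.0 and 60.7 CPM with Dex and at 66.4, 57.5 and 63.1 with both. Gpr83 was thus higher without overlap in both IL-1B groups, with 0.71 ± 0.26 for IL-1B (adjusted p = 0.0692) and 0.65 ± 0.26 for both (adjusted p = 0.101). These crossed the threshold in DESeq2 (adjusted p = 0.0201 and 0.04), without untreated 3 (0.00583 and 0.00846) and without Dex 2 (0.032 and 0.0491).

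The last pair are Izumo1r and Capg. Izumo1r, the folate receptor 4 gene, whose product marks Treg cells in mice (chr9:14885814-14903949, 15024 bases from Gpr83), had group means of 152 ± 29.5 CPM untreated, 175 ± 20.2 with Dex, 142 ± 15.9 with IL-1B and 142 ± 17.0 with both. Its changes against untreated were 0.20 ± 0.14, -0.10 ± 0.14 and -0.10 ± 0.14, all with overlapping groups (adjusted p = 0.721, 0.661 and 0.678). Capg, an actin filament capping protein found in Treg expression signatures (chr6:72544391-72562983), had group means of 351 ± 28.7, 347 ± 12.5, 326 ± 4.16 and 306 ± 19.8 CPM in the same order. The smallest value of any member with Dex was that of Capg, -0.02 ± 0.08 (95% interval -0.20 to 0.16, adjusted p = 0.977). With both agents it had -0.20 ± 0.08 (adjusted p = 0.114), and was called lower only without the rRNA-rich pair (adjusted p = 0.0311).

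Counted together, 0 of the 10 genes were called with Dex in edgeR, where 0.535% of all genes tested were, and 3 (Ctla4, Tnfrsf4 and Ikzf4) had an unadjusted p under 0.05. The share of all genes at that unadjusted threshold is not given here, for this or any other count at it. DESeq2 also called 0. Of the 10 values with Dex 9 were positive, against 7 with IL-1B and 6 with both. Most members deviated in the same untreated and Dex libraries (below), so these signs are not separate evidence. The median log2 change with Dex was 0.46 against 0.00 for all genes tested. That median rests in part on single libraries: it was 0.21 without untreated 1 and 0.28 without Dex 1. Ctla4 was the 1 gene whose groups did not overlap, where 18.6% of genes did not.

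With IL-1B, 2 of 10 were called higher (Ikzf4 and Tnfrsf4) and 0 lower, beside 21.4% of all genes called in either direction and 11.9% called higher (9.51% lower). The share of members called was therefore near that of all genes. Their median was 0.37, and became 0.16 without untreated 1, 0.63 without untreated 3 and 0.24 without IL-1B 1. Groups did not overlap for 4 members (39.2% of all genes). With both agents, again 2 were called higher, the same 2 genes, where 18.2% of all genes were called in either direction 10.3% higher and 7.82% lower. The median was 0.60, or 0.33 without untreated 1, and 4 members did not overlap (39.1% of all genes). These comparisons share the untreated libraries, so their agreement is not separate evidence.

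**Figure D3:**
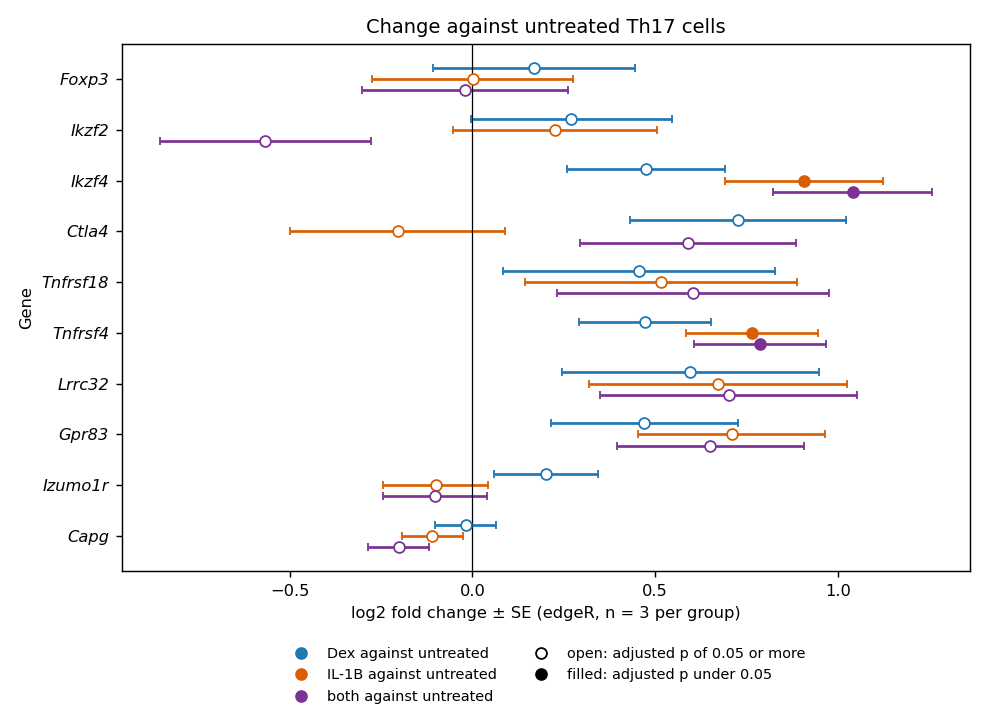
Log2 change against untreated of each gene with Dex, IL-1B and both, as estimate ± SE from edgeR with 3 libraries a group. Filled points have an adjusted p under 0.05, and these are Ikzf4 and Tnfrsf4 with IL-1B (0.91 and 0.77) and with both (1.04 and 0.79).

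No member passed when one agent was added to the other. When both agents were compared with IL-1B alone, 0 of 10 were called (0.275% of all genes), groups did not overlap for 1 (Ikzf2; 10.6% of all genes) and 2 had an unadjusted p under 0.05, Ctla4 at 0.79 ± 0.30 (adjusted p = 0.64) and Ikzf2 as above. DESeq2 called 0 as well. Against Dex alone, 0 of 10 were called (13.6% of all genes) and 3 had an unadjusted p under 0.05: Ikzf2, Ikzf4 at 0.57 ± 0.21 (adjusted p = 0.103) and Capg at -0.18 ± 0.08 (adjusted p = 0.17). DESeq2 called Ikzf4 there (adjusted p = 0.0458). The groups of 4 members did not overlap in that comparison (Foxp3, Ikzf2, Ikzf4 and Capg; 37.6% of all genes). No gene of all those tested was called for the interaction (0%), and among members Ikzf2 alone had an unadjusted p under 0.05. For the mean Dex effect 0 members were called (1.48% of all genes). Over the mean IL-1B effect, with 6 libraries on each side, Ikzf4 rose by 0.74 ± 0.15 (adjusted p = 0.0028) and Tnfrsf4 by 0.54 ± 0.13 (adjusted p = 0.00579), where 33.5% of all genes were called, 17.7% higher and 15.8% lower. Ikzf4 was the 1 member with no overlap between those 6 and 6 libraries (17.7% of all genes).

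In the untreated and Dex groups most members deviated in the same libraries. Untreated 1 was the lowest untreated library for 10 of 10 members and untreated 3 the highest for 10 of 10, where 39% and 35.3% of all genes tested had those places. Dex 2 was the lowest Dex library for 9 of 10 (38.3% of all genes), all but Foxp3. What set these libraries apart was not tested. Untreated 1 also had the highest summed B cell markers (202 CPM). Over the groups that sum was 130 to 202 CPM untreated, 103 to 124 with Dex, 102 to 126 with IL-1B and 105 to 117 with both. The sum was thus below the untreated range with Dex alone as well as in both IL-1B groups. Ighm alone gave 112 of the 202 CPM in untreated 1, and the 9 markers did not all move alike. With IL-1B against untreated, 3 of the 9 were called lower and 0 higher (9.51% and 11.9% of all genes), and 2 had positive values. Ebf1 was at 6.69, 7.15 and 7.70 CPM untreated and at 8.80, 14.9 and 8.19 with IL-1B. The part of B cell RNA in the rises of Ikzf4 and Tnfrsf4 was not tested. The sum of 12 Th17 markers was 1212 to 1442 CPM untreated, 990 to 1160 with Dex, 1738 to 1824 with IL-1B and 1399 to 1721 with both.

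**Figure D4:**
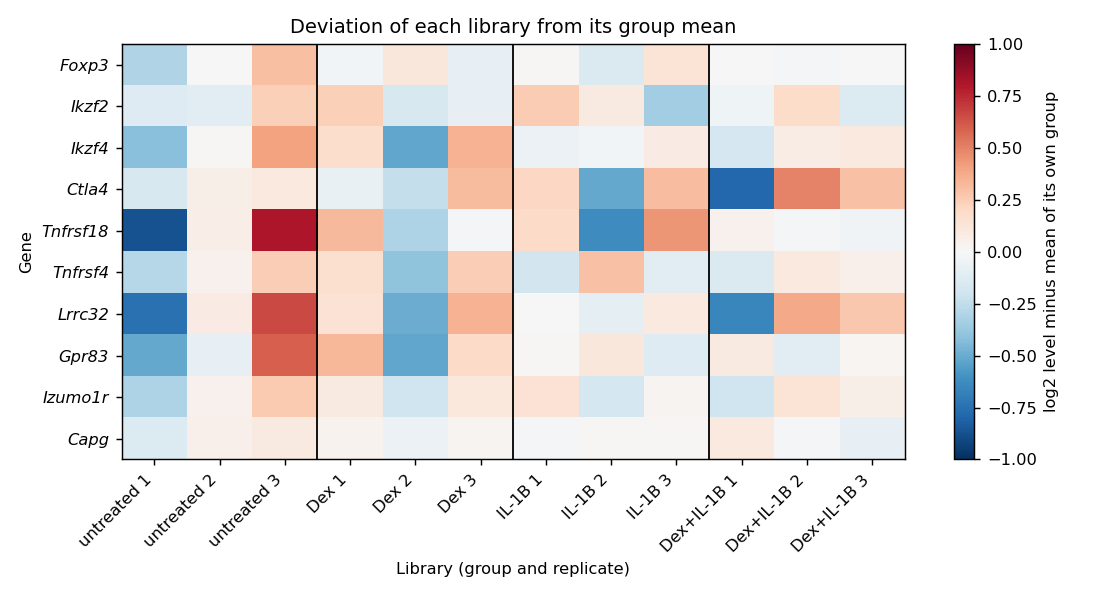
Difference of each library from the mean of its own group on the log2 scale, with genes in rows and the 12 libraries in columns. Untreated 1 is below and untreated 3 above its group for all 10 genes, and Ctla4 and Lrrc32 are low in Dex+IL-1B 1.

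Over the 12 libraries the closest pair was Ikzf4 and Tnfrsf4, with a Pearson correlation of log2 CPM of 0.95, followed by Ikzf4 and Gpr83 at 0.90. After group means were removed these had 0.85 and 0.86, and the closest pair was instead Lrrc32 and Izumo1r, at 0.93 (0.56 before). These values describe 12 libraries that share groups and library effects. In a search over all genes averaging 5 CPM or more, the 3 most like Ikzf4 over the 12 libraries were Rnf126 (0.98), Orc1 (0.97) and Ydjc (0.97). The 3 most like Foxp3 were Acsf3 (0.88), Cox7c (0.86) and Atp5g2 (0.86), from the 22 to 43 Foxp3 reads of each library.

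Lists of genes that control or accompany this set were examined for IL-1B in the same way, where 11.9% of all genes tested rose and 9.51% fell. Of 38 genes known to regulate Foxp3, all tested, 7 rose and 3 fell, with a median of 0.08 against 0.00 for all genes. The STAT5 genes were among those that rose: Stat5a from a mean of 149 to 463 CPM (1.63 ± 0.09, adjusted p = 4.02e-07) and Stat5b by 0.66 ± 0.08 (adjusted p = 0.000317). Rel, the NF-kB subunit c-Rel that acts at the Foxp3 locus, rose by 0.95 ± 0.21 (adjusted p = 0.00748), and Nfatc1, a calcium-regulated factor, fell by 0.71 on the log2 scale (SE 0.11, adjusted p = 0.00114). The count of 7 was 3 without untreated 2 and 4 with no filter on low counts, and the count of 3 became 1 on omitting IL-1B 1 and 5 on omitting Dex+IL-1B 1. Il2, the cytokine that sustains Treg cells through STAT5, rose from a mean of 4.12 to 48.1 CPM (3.56 ± 0.30, adjusted p = 3.11e-05), in a list of 14 IL-2 receptor and signalling genes of which 5 rose and 2 fell (median 0.13). Socs3, an inhibitor of cytokine receptor signalling, was among those that fell (-0.97 ± 0.15, adjusted p = 0.00104).

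Of 33 tested of 37 further Treg-associated genes, 9 rose and 4 fell with IL-1B (median 0.09), beside the same 11.9% and 9.51% of all genes, which apply to each list that follows. The lists overlap, so some calls are counted in more than 1 list. Stat5a and Stat5b, for example, are in the Foxp3 regulator and IL-2 lists, and Il2ra is in the IL-2 list and this one. Ccr8, a chemokine receptor of tissue Treg cells, rose by 1.21 ± 0.23 (adjusted p = 0.00324) and Plagl1, a zinc finger factor, by 1.29 ± 0.22 (adjusted p = 0.00159). Nt5e, which encodes the adenosine-producing enzyme CD73, went down from 104 to 42.7 CPM (-1.28 ± 0.18, adjusted p = 0.000794), and the inhibitory receptor gene Lag3 had -0.56 ± 0.09 (adjusted p = 0.00154). Among 15 tested genes of a list of TNF family receptors and their ligands, without the members, 4 fell and 1 rose (median -0.13). The falls were the ligand gene Tnfsf4 (-0.67 ± 0.21, adjusted p = 0.0349) and the receptor genes Tnfrsf26 (-0.85 ± 0.15, adjusted p = 0.00191), Cd27 (-0.83 ± 0.17, adjusted p = 0.00481) and Tnfrsf1a (-0.53 ± 0.11, adjusted p = 0.00529). The Tnfsf4 call was lost without any one of untreated 1 or 3 and IL-1B 1 or 3. It was also lost with no filter on low counts (adjusted p = 0.0518), with the replicate number as a block (0.0537) and in the fit to the 2 groups compared (0.0864). The 1 rise was lost without any one of untreated 2 or 3, Dex 1, IL-1B 1 or 2, and Dex+IL-1B 2 or 3. In a list of 9 CD28 family receptors and B7-type ligands, without Ctla4, 1 rose, the inhibitory receptor gene Btla (0.60 ± 0.13, adjusted p = 0.00533), and 1 fell, Pdcd1, which encodes PD-1 (-0.96 ± 0.17, adjusted p = 0.00245), with a median of -0.16. A list on the handling of latent TGF-B also held TGF-B ligand and receptor genes, and 11 of its genes were tested. Furin, which cleaves the TGF-B precursor, rose by 1.88 ± 0.16 (adjusted p = 1.76e-05). The receptor gene Tgfbr2 fell by 0.74 on the log2 scale (SE 0.12, adjusted p = 0.00159), and the median of the list was -0.03. Omitting IL-1B 1, or Dex+IL-1B 1, brought a second call of a rise in this list.

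With Dex, 0.535% of all genes tested were called. Of the 38 Foxp3 regulators 1 rose, Tet2, a DNA demethylase gene active at Foxp3, by 0.68 ± 0.13 (adjusted p = 0.0384), and 0 fell, with 12 at an unadjusted p under 0.05. That call was lost without any one of untreated 1, 2 or 3, Dex 1 or 3, Dex+IL-1B 3 or IL-1B 3 (adjusted p = 0.0557 to 0.247 among these), and DESeq2 called 2 higher and 2 lower. Of the 33 other Treg-associated genes 0 were called in edgeR, with 8 at an unadjusted p under 0.05 and 1 called lower by DESeq2. Omitting Dex 2 gave 1 higher and 1 lower. Their median was 0.18, beside 0.46 for the 10 members. The share of all genes at an unadjusted p under 0.05 is not given here, so the counts of 12 and 8 are not read as an excess.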

How the data were processed

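RNA was measured in 12 libraries of mouse Th17 cells, 3 in each of 4 groups. The deposited data were a gene-by-library table of raw counts that the authors had not normalized. Per the submitters' processing notes the tools included STAR 2.7.0a and HTSeq 0.6.1, with no settings given. No strand setting is given, and overlapping antisense genes cannot therefore be separated. Symbols, exon lengths and coordinates came from GENCODE vM21 on GRCm38, and 34490 of 35275 identifiers had a symbol.

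Counts were tested in R 4.3.3 with edgeR 4.0.16 (TMM scaling, the edgeR filter on group, robust quasi-likelihood, 1 term per group, 8 residual degrees of freedom). Of all genes, 13821 were tested, including all 10 members, and those left out held 0.0562% of counts. The fit gave 8 contrasts. P-values were adjusted by Benjamini-Hochberg within each contrast, over all tested genes, and "called", "rose" and "fell" mean an adjusted p under 0.05. Every share of all genes called is that of this edgeR fit, not of the alternatives. Changes are log2 fold changes ± SE, and levels are CPM on TMM-scaled library sizes. A CPM per kb divides by summed exon length. The labels do not say that the libraries of a group were separate cultures or mice, so the p-values cover the spread among these particular samples, possibly only technical spread. Replicate libraries differed by more than counting noise. The fit was tested on simulated data.

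All members are named. The result of 1 marker gene is not reported here. Of the other lists, up to 4 genes per list with the smallest adjusted p, averaging 5 CPM or more in whichever group was higher, could be named. Members and lists were chosen with earlier results of these data known. Alternatives were DESeq2 1.42.0, median-ratio scaling, no filter on low counts, the replicate number as a block, a fit to the 2 groups compared, each library left out and, chosen after seeing the data, both libraries high in rRNA-overlapping genes left out.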

Additional observations from a re-analysis of the deposited data

How the results depend on the processing

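Over 18 alternative settings, 703 of 750 values for single genes kept their direction and their side of the threshold, 4 fell below it, 21 rose past it, and 22 in 7 gene results changed sign, none of them a called value. The number of the 10 genes called in each comparison was the same with median-ratio scaling, and with the replicate number as a block (2 for IL-1B and 2 for both). Other counts with IL-1B were 1 with no filter on low counts and 0 without the rRNA-rich pair (IL-1B 2 and Dex+IL-1B 1), against 2. Without that pair the counts were 1 with Dex, 4 with both and 1 for the mean Dex effect. DESeq2 called 3 for IL-1B, 3 for both against untreated, 1 for both against Dex, 1 for the mean Dex effect and 4 for the mean IL-1B effect. Leaving out 1 library gave 1 to 3 calls for IL-1B, 2 to 4 for both, 0 to 1 for the mean Dex effect and 2 to 4 for the mean IL-1B effect. The share of all genes called in each of these settings is not given here. A change in member calls therefore cannot be told from a change over all genes. The cause of these shifts was not tested.

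Sign changes were all of values near 0. Leaving out 1 library, Foxp3 ranged from -0.0147 to 0.373 with Dex, from -0.185 to 0.206 with IL-1B and from -0.205 to 0.189 with both. The ranges were -0.0881 to 0.0161 for Capg with Dex, -0.246 to 0.0287 for Izumo1r and -0.370 to 0.0144 for Ctla4 with IL-1B, and -0.247 to 0.0304 for Izumo1r with both. Foxp3 with IL-1B was -0.00248 with median-ratio scaling, -0.0215 with no filter and -0.0103 in the fit to 2 groups. Without the rRNA-rich pair Ctla4 with IL-1B was 0.0206 and Izumo1r with both 0.000162.

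Equal replicate numbers were not taken as pairs, since not every pair agreed: deviations from group means correlated at -0.359 to 0.433 over 18 same-numbered pairs, of which 9 were over 0.1 (all 6 pairs of replicate 3, at 0.122 to 0.433, and 3 others), and 4 of 12 libraries correlated best with their own number. Foxp3 and Ikzf2, at 19 to 64 reads per library, have the largest counting error of the 10.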
